A study of Mus musculus with 6 samples.

Results

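The miRNAs described here are encoded at the imprinted loci of Mest, H19, Igf2 and Gnas. They were chosen by name from the qRT-PCR array table, as every mouse assay of miR-296, miR-298, miR-335, miR-483 or miR-675 with all strands included, which gave 9 of 596 mouse miRNA assays. The aortas, 3 from EC-Dicerflox and 3 from EC-DicerWT mice, were taken once the animals had been fed a high-fat diet (HFD) for 4 weeks. EC-Dicerflox mice carried floxed Dicer1 on both alleles (VE-Cadherin-CreERT2Dicer1flox/flox/Apoe-/-), and EC-DicerWT littermates carried wild-type Dicer1 (VE-Cadherin-CreERT2Dicer1WT/WT/Apoe-/-), so that both groups lacked apolipoprotein E and carried the tamoxifen-inducible Cre transgene. All mice were given tamoxifen (2 mg per 20 g body weight) for 5 days. They are labelled as 6 to 8 weeks old, which the methods of the study give as their age when the HFD began. The labels describe them as male and the methods of the study as female. The VE-Cadherin promoter drives Cre in endothelial cells (ECs), and RNA of the whole aorta was measured, which also contains cells that the promoter does not target. Dicer in those cells was not analysed here. In such samples, fewer cells of a type and less RNA per cell cannot be told apart. Dicer1 mRNA is not among the assays. Each group held 3 mice, which the labels call biological replicates.

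At an imprinted locus, the copy inherited from a given parent is silenced, and many imprinted genes regulate growth. Mest, which encodes a hydrolase-like protein of mesenchyme and fat, and Igf2, a fetal growth factor, are expressed from the paternal copy, and H19, a long noncoding RNA, from the maternal copy. The Gnas region, whose main product is the stimulatory G protein alpha subunit, also gives rise to an antisense transcript of the paternal copy. Each of these loci contains miRNA hairpins that Dicer cuts into a 5p and a 3p strand.

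The sequences of the strands with a signal are shown because the results turn on these assays and because the arms of a hairpin were measured separately. Of the 9 assays, 6 matched a mature sequence of RefSeq (mouse build GRCm38.p6) by name, and the strand detected by the assays named miR-298, miR-483 and miR-483* is not given in the sources used here. Capitals mark the seed, bases 2 to 8 from the 5′ end, through which a miRNA recognises its targets.
miR-335-5p: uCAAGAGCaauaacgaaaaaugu
miR-335-3p: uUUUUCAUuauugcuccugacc
miR-296-5p: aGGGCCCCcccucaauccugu
miR-675-3p: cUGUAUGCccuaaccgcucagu

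In GRCm38.p6, miR-335-5p lies at chr6:30741314-30741336 and miR-335-3p at chr6:30741354-30741375 on the plus strand, within Mest. MiR-296-5p lies at chr2:174267093-174267113 on the minus strand. No other gene of the RefSeq table overlaps its hairpin, which neighbours that of miR-298, with 457 bp between the starts of the hairpins. MiR-298 in turn neighbours the antisense gene Gnasas1. MiR-675-3p lies at chr7:142577078-142577099 on the minus strand within H19, and the hairpin of miR-483 overlaps Igf2. None of these 4 strands shares its seed with another of the 1738 mature sequences of the table (0 others each), so that they do not form a seed family. The strands from Mest are poor in G and C (30.4% for miR-335-5p and 36.4% for miR-335-3p), unlike miR-296-5p with 66.7%. The hairpin of miR-335 is shown in full to place both measured arms, which are in capitals.
Mir335: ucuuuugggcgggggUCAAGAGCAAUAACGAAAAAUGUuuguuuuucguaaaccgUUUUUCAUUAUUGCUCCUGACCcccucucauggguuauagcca

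Each value in the deposited table is a CT, the PCR cycle at which the fluorescence crosses a threshold, and a well without a signal is listed at 40. A lower CT means more RNA. Levels are given below on the log2 scale as minus the delta CT, that is, the mean CT of U6 and snoRNA135 in a sample (control small RNAs) minus the CT of the miRNA. Between 375 and 415 miRNAs had a CT under 40 in a sample, the fewest in EC-Dicerflox replicate 3, which also had the highest median CT (28.2, against 26.4 to 27.5 in the others). The smooth muscle miRNAs miR-143 and miR-145 had signals in all 6 samples, as did miR-126-3p and miR-126-5p of ECs. Of 5 striated muscle markers, miR-1, miR-133a and miR-133b had signals in all 6 samples (miR-133a at CT values of 18.4 to 20.2), miR-208 in some, and miR-499 was at 40 throughout. A signal in at least 1 sample, that is, a CT under 40, was the condition for the test, which left 461 miRNAs.

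Of the 9 assays, 3 had a signal in all 6 aortas, miR-675-3p in 4 and miR-298 in 1, and the remaining 4 were at 40 throughout. The share without any signal was 44.4%, against 22.7% of all 596 mouse assays. The Mest locus was represented by both strands of its miRNA, the Gnas region in essence by miR-296-5p, H19 by a weak signal of the 3p strand, and Igf2 by neither of its assays. In the fit across all miRNAs, 0 of the 5 assays with a signal passed an adjusted p-value of 0.05 (limma with Benjamini-Hochberg adjustment), as did 0% of all 461. Before adjustment, the limma p-value was under 0.05 for miR-335-5p alone of the 5, against 3.04% of the 461 miRNAs. This depended on the model. In a fit with replicate numbers as blocks, the limma p-value before adjustment was 0.0707 for miR-335-5p, no longer under 0.05, and 0.0188 for miR-675-3p, now under it. MiR-335-5p was also the only 1 of the 5 whose groups did not overlap, against 10.4% of the 461.

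MiR-335-5p, known from cancer cells for its repression of SOX4 and tenascin C, was higher in every EC-Dicerflox than in any EC-DicerWT aorta. Its CT was 28.5, 27.4 and 29.9 in EC-Dicerflox replicates 1, 2 and 3, and 28.9, 29.5 and 30.0 in EC-DicerWT replicates 1, 2 and 3. The raw CT values overlapped, with EC-Dicerflox replicate 3, the sample of highest median CT, among the EC-DicerWT samples. Relative to U6 and snoRNA135, the log2 levels were -9.58, -8.72 and -9.65 in EC-Dicerflox and -10.07, -10.54 and -10.43 in EC-DicerWT aortas, and the groups were separated. The mean log2 level was -9.32 ± 0.52 (SD, n = 3) in EC-Dicerflox and -10.35 ± 0.248 (SD, n = 3) in EC-DicerWT aortas. The log2 fold change was 1.03 (standard error 0.36, 95% confidence interval 0.12 to 1.93), equal to 2.04-fold. The unadjusted limma p-value was 0.0328, the adjusted p-value was 0.923, and exact permutation gave a two-sided p of 0.1, the smallest that 3 against 3 samples allow. Among the 350 miRNAs detected in every sample, 3.71% had a higher log2 fold change, and their median was 0.10. Without EC-Dicerflox replicate 2, the sample with the highest level, the log2 fold change was 0.73 (unadjusted limma p-value of 0.0761). The p-value was also above 0.05 without EC-Dicerflox replicate 1 (0.0516), EC-DicerWT replicate 2 (0.0921) or EC-DicerWT replicate 3 (0.0806), so that it stayed under 0.05 in 2 of 6 such fits.

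MiR-335-3p, cut from the same hairpin, had a log2 fold change of the same sign, but the groups overlapped. Its CT was 29.6, 28.9 and 31.9 in EC-Dicerflox and 30.4, 30.1 and 31.7 in EC-DicerWT replicates 1, 2 and 3. The log2 levels were -10.74, -10.17 and -11.68 in EC-Dicerflox and -11.55, -11.20 and -12.13 in EC-DicerWT aortas, so that EC-Dicerflox replicate 3 lay among the EC-DicerWT samples. The log2 fold change was 0.76 (standard error 0.50, 95% confidence interval -0.49 to 2.02), with an unadjusted limma p-value of 0.181 and an adjusted p-value of 0.923 (two-sided exact permutation p = 0.3). It was 0.42 without EC-Dicerflox replicate 2 and 1.17 without EC-Dicerflox replicate 3 (unadjusted limma p-values of 0.442 and 0.0473). With samples compared within a replicate number, miR-335-3p was higher in EC-Dicerflox aortas in 3 of 3 pairs. The same held for miR-335-5p, where it follows from groups that do not overlap, while the pairs of miR-296-5p were mixed in sign. How many of all miRNAs had the same sign in 3 of 3 pairs was not counted, and what a replicate number shares is not stated.

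MiR-296-5p of the Gnas region, an miRNA known for effects on growth factor receptor turnover in ECs, had the lowest CT values of the 9 assays. Its CT was 26.6, 26.1 and 28.8 in EC-Dicerflox and 25.7, 26.5 and 27.2 in EC-DicerWT replicates 1, 2 and 3. The log2 levels were -7.68, -7.41 and -8.57 in EC-Dicerflox and -6.88, -7.58 and -7.57 in EC-DicerWT aortas, and the groups overlapped. The log2 fold change was -0.54 (standard error 0.42, 95% confidence interval -1.60 to 0.53), opposite in sign to that of the miR-335 strands, with an unadjusted limma p-value of 0.254 and an adjusted p-value of 0.923 (two-sided exact permutation p = 0.4). Without EC-Dicerflox replicate 3 it was -0.20, and without EC-DicerWT replicate 1 it was -0.31. Its partner strand miR-296-3p was at 40 in all 6 samples. This places the CT of the 3p assay at least 11.2 to 14.3 cycles above that of the 5p assay, although assays may differ in efficiency. MiR-298, from the neighbouring hairpin, had a single well under 40, a CT of 39.8 in EC-DicerWT replicate 2.

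**Figure D1:**
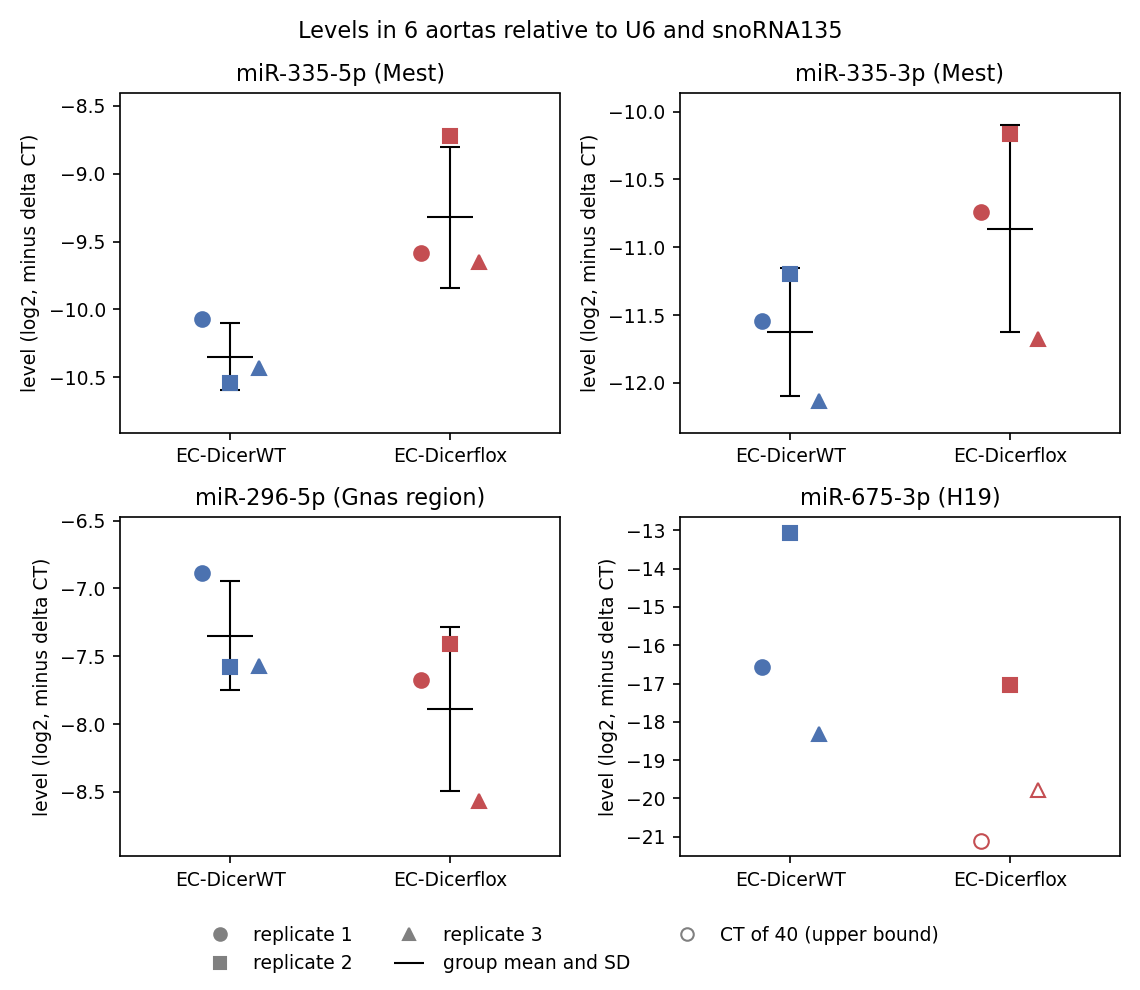
Log2 level (minus delta CT against U6 and snoRNA135) of miR-335-5p, miR-335-3p, miR-296-5p and miR-675-3p in 3 EC-DicerWT (blue) and 3 EC-Dicerflox (red) aortas, where bars are the mean and SD (not drawn for miR-675-3p) and open symbols are wells at a CT of 40, which are upper bounds. For miR-335-5p the EC-Dicerflox samples lie between -9.65 and -8.72, all above the EC-DicerWT samples, whereas the groups overlap for the other 3 miRNAs; vertical axes start at different values, and the axis of miR-675-3p spans a wider range.

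The signal of miR-675-3p, which is released from the H19 transcript and whose host hairpin is known to restrain placental growth, was late and uneven. Its CT was 35.4, 32.0 and 37.9 in EC-DicerWT replicates 1, 2 and 3, and 35.7 in EC-Dicerflox replicate 2, while EC-Dicerflox replicates 1 and 3 were at 40. A signal was thus present in 3 of 3 EC-DicerWT and 1 of 3 EC-Dicerflox aortas, and the only EC-Dicerflox value lay within the range of the EC-DicerWT samples. With wells at 40 taken at that limit, the log2 fold change was -3.32 (standard error 1.71, 95% confidence interval -7.64 to 1.00), with an unadjusted limma p-value of 0.107 and an adjusted p-value of 0.923 (two-sided exact permutation p = 0.2). The size of this estimate rests on where the limit is set, and it was -0.84 when CT values above 35 were set to 35 (unadjusted limma p-value of 0.38). Without EC-DicerWT replicate 2, the sample with the strongest signal, it was -1.86. Within replicate numbers, miR-675-3p was lower in EC-Dicerflox aortas in 3 of 3 pairs, with wells at 40 at that limit, and the replicate block gave an unadjusted limma p-value of 0.0188 and an adjusted p-value of 0.767. In the fit with this block, 15 of all 461 miRNAs had an unadjusted limma p-value under 0.05. How many of all miRNAs had the same sign in 3 of 3 pairs was not counted. MiR-675-5p, miR-483 and miR-483* were at 40 in all 6 samples, so that no level or fold change of these can be given.

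CT differences between assays of the same sample need no control RNA. The CT of miR-335-3p minus that of miR-335-5p was 1.16, 1.45 and 2.02 cycles in EC-Dicerflox and 1.48, 0.656 and 1.70 cycles in EC-DicerWT replicates 1, 2 and 3. The groups overlapped, with means of 1.54 ± 0.44 cycles (SD, n = 3) and 1.28 ± 0.551 cycles (SD, n = 3), and the two-sided exact permutation p was 0.7. The difference of 0.264 cycles between the groups became -0.048 cycles without EC-DicerWT replicate 2.

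The miRNAs of Mest and of the Gnas region were also set against each other, a comparison chosen after their values had been seen. The CT of miR-335-5p minus that of miR-296-5p was 1.91, 1.31 and 1.09 cycles in EC-Dicerflox and 3.19, 2.96 and 2.85 cycles in EC-DicerWT replicates 1, 2 and 3. The means were 1.43 ± 0.425 cycles (SD, n = 3) and 3.00 ± 0.169 cycles (SD, n = 3), a difference of -1.57 cycles, or a 2.96-fold higher ratio of miR-335-5p to miR-296-5p in EC-Dicerflox aortas. No EC-Dicerflox sample overlapped with an EC-DicerWT sample (two-sided exact permutation p = 0.1, the minimum for 3 against 3), and the difference ranged from -1.80 to -1.39 cycles when each sample was left out in turn. The same held for miR-335-3p minus miR-296-5p, with 3.07, 2.76 and 3.11 cycles in EC-Dicerflox and 4.66, 3.62 and 4.56 cycles in EC-DicerWT aortas (a difference of -1.30 cycles, two-sided exact permutation p = 0.1). Such separation was frequent, above all for miR-335-5p. Against the other 349 miRNAs detected throughout, CT differences of miR-335-5p did not overlap between the groups for 51.3%, those of miR-335-3p for 18.6% and those of miR-296-5p for 23.5%.

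**Figure D2:**
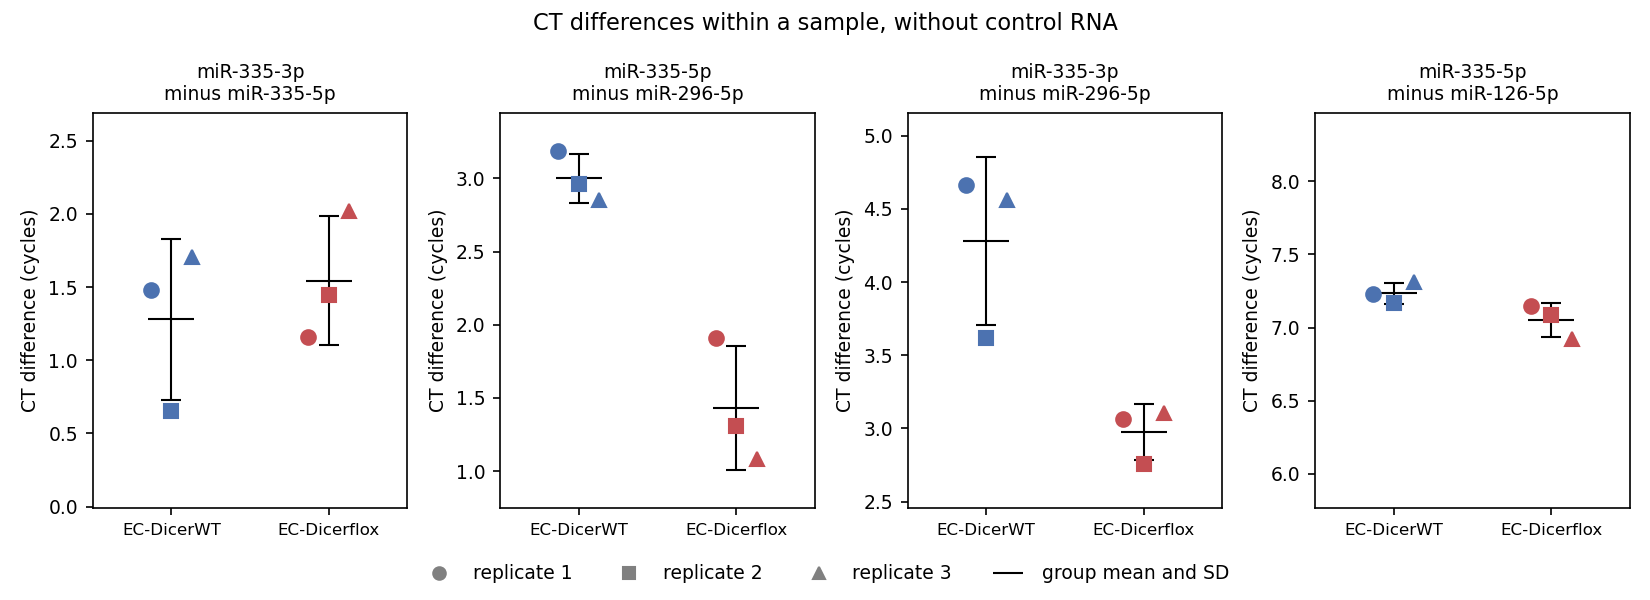
CT differences in cycles between pairs of assays within each of 3 EC-DicerWT (blue) and 3 EC-Dicerflox (red) aortas, with the mean and SD, on axes of equal span. The arms of miR-335 overlap between the groups, miR-335-5p and miR-335-3p minus miR-296-5p do not, and miR-335-5p minus miR-126-5p stays between 6.92 and 7.31 cycles in all samples.

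Over the 6 samples, the log2 levels of both miR-335 strands had a Pearson r of 0.768, and miR-335-5p and miR-296-5p of -0.0997, as a description in which all levels share the control RNAs of the sample. The miRNAs with the pattern closest to that of miR-335-5p were miR-126-5p (r = 0.983), let-7c (r = 0.969) and miR-669n (r = 0.949). Only 7 of 349 miRNAs had an r over 0.9, and the median r was 0.244. Closest to miR-335-3p were miR-214 (r = 0.967), miR-320 (r = 0.961) and miR-379 (r = 0.946), and closest to miR-296-5p were miR-1839-3p (r = 0.951), miR-331-5p (r = 0.931) and miR-1191 (r = 0.926).

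MiR-126-5p, cut from a hairpin of the EC gene Egfl7, was taken up because its r with miR-335-5p was the highest of 349, so that a narrow CT difference between them follows from the choice and is given as a description without a test. Its CT was 21.3, 20.3 and 23.0 in EC-Dicerflox and 21.7, 22.3 and 22.7 in EC-DicerWT replicates 1, 2 and 3. The CT of miR-335-5p minus that of miR-126-5p ranged over 0.385 cycles in the 6 samples, from 6.92 to 7.31. Relative to miR-126-5p, miR-335-5p differed by -0.18 cycles between the groups, 7.05 ± 0.117 (SD, n = 3) against 7.24 ± 0.0703 (SD, n = 3), with 7.15 and 7.17 cycles as the nearest samples of the groups. Without EC-Dicerflox replicate 3 the difference was -0.12 cycles. Relative to the other arm, miR-126-3p, it was -0.62 cycles. The log2 fold changes of miR-126-5p and miR-126-3p themselves were 0.85 and 0.41 (unadjusted limma p-values of 0.0727 and 0.193). The summed log2 level of both endothelial markers was 1.05 to 1.72 in EC-Dicerflox and 0.837 to 0.906 in EC-DicerWT aortas, without overlap, as was the case for 10.4% of the 461 single miRNAs. Of these 2 markers, 0 passed the adjusted p-value. The summed levels overlapped between the groups for the markers of striated muscle (0.0428 to 0.463 in EC-Dicerflox and 0.023 to 0.16 in EC-DicerWT), smooth muscle (4.30 to 5.56 in EC-Dicerflox and 4.23 to 4.83 in EC-DicerWT), leukocytes (-0.893 to -0.232 and -0.535 to 0.322) and brown adipose tissue (1.40 to 1.53 and 0.85 to 1.65). The smooth muscle marker of lower CT, miR-145, had a nearly constant CT of 14.69 to 14.955 over the 6 samples. The mean CT of U6 and snoRNA135 ranged from 18.70 to 20.22 and was highest in EC-Dicerflox replicate 3. The smooth muscle value of 5.56 is that of this sample, so that it cannot be read as more smooth muscle RNA. The log2 fold change was positive for all of the 3 striated muscle, 2 smooth muscle and 3 brown adipose tissue markers with a signal in all samples, as it was for 197 of all 350 miRNAs. Of the 4 leukocyte markers, 3 had a negative log2 fold change, and for miR-142-5p (-0.996, unadjusted limma p-value of 0.00989 and adjusted p-value of 0.923) the groups did not overlap, with lower levels in EC-Dicerflox aortas. The summed level of the striated muscle markers had an r of 0.764 with miR-335-5p over the 6 samples, and that of the endothelial markers 0.935. The endothelial sum holds miR-126-5p, taken up for its high r, so that this value follows in part from the choice. For the other lists, r was -0.095 for smooth muscle (with the limit given above for miR-145), -0.273 for leukocytes and 0.358 for brown adipose tissue. It was 0.424 for the erythroid marker miR-451, 0.477 for the liver marker miR-122 and 0.348 for the neuron markers miR-124 and miR-9. The part of endothelial or striated muscle cell content in the values of miR-335-5p was not tested.

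Other miRNAs of the array were compared as lists for 2 further imprinted loci. The lists were made by miRNA number, and the genomic position of each miRNA on them was not checked. Of 71 assays for miRNAs between Dlk1 and Dio3, a cluster expressed from the maternal copy, 60 had a signal in at least 1 sample, 22 with a positive and 38 with a negative log2 fold change, against 251 and 210 of all 461 miRNAs. These counts include folds set in part by wells at 40. Of the 47 with a signal in all samples, 20 had a positive and 27 a negative log2 fold change, against 197 and 153 of all 350. None of the 60 passed the adjusted p-value (0 of 60). An unadjusted limma p-value under 0.05 was found for 1 of the 60, miR-380-3p (p-value 0.00421), against 3.04% of all 461. It was at 40 in part of the samples, so that its log2 fold change of -5.28 depends on that limit. The median log2 fold change of the 47 was -0.064. Of 31 assays on the list for the intron of Sfmbt2, a gene expressed from the paternal copy, 28 had a signal. Of the 28, 15 had a positive and 13 a negative log2 fold change, and 0 passed the adjusted p-value. The split turned to 7 and 10 over the 17 with a signal in all samples. Before adjustment, 1 of the 28 was under 0.05, miR-669n (log2 fold change 1.49, limma p-value 0.0323). The list median was -0.041 over these 17, against 0.10 over all 350 miRNAs. Both miR-335 strands were above these medians and miR-296-5p was below them.

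**Figure D3:**
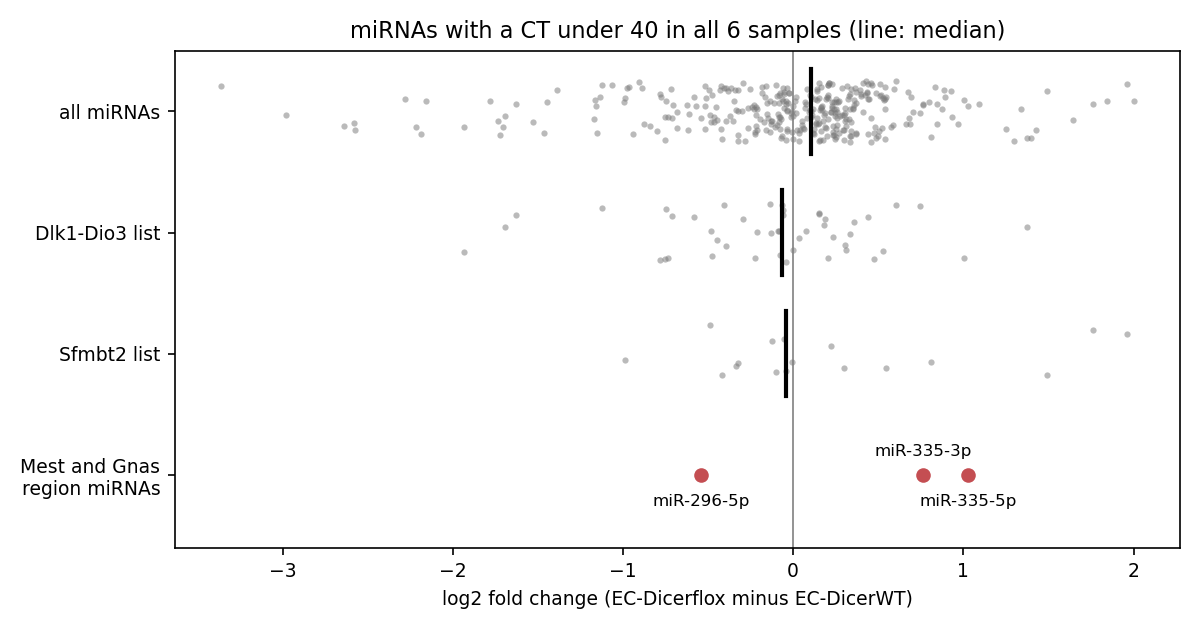
Log2 fold change (EC-Dicerflox minus EC-DicerWT) of each miRNA detected in every sample, with each point a miRNA and lines at the medians of the 3 larger sets, for all 350 miRNAs, 47 of the Dlk1-Dio3 list, 17 of the Sfmbt2 list and the 3 of the Mest and Gnas regions. MiR-335-5p (1.03) and miR-335-3p (0.76) lie on the right of each median and miR-296-5p (-0.54) on the left; the vertical spread within a row has no meaning.

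The choice of the control RNAs moved each estimate by less than its standard error. With U6, snoRNA135 or snoRNA202 alone, the log2 fold change of miR-335-5p was 1.11, 0.94 and 0.87, that of miR-335-3p was 0.85, 0.68 and 0.60, and that of miR-296-5p was -0.46, -0.62 and -0.70. Each of these kept its sign, while the median of all 350 miRNAs went from 0.19 with U6 to -0.058 with snoRNA202. Relative to the median with U6 and snoRNA135, miR-335-5p was at 0.92, miR-335-3p at 0.66 and miR-296-5p at -0.64. The unadjusted limma p-value of miR-335-5p was 0.0996 with U6 alone, 0.0599 with the controls of the same card and 0.0113 relative to the mean over miRNAs.

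**Figure D4:**
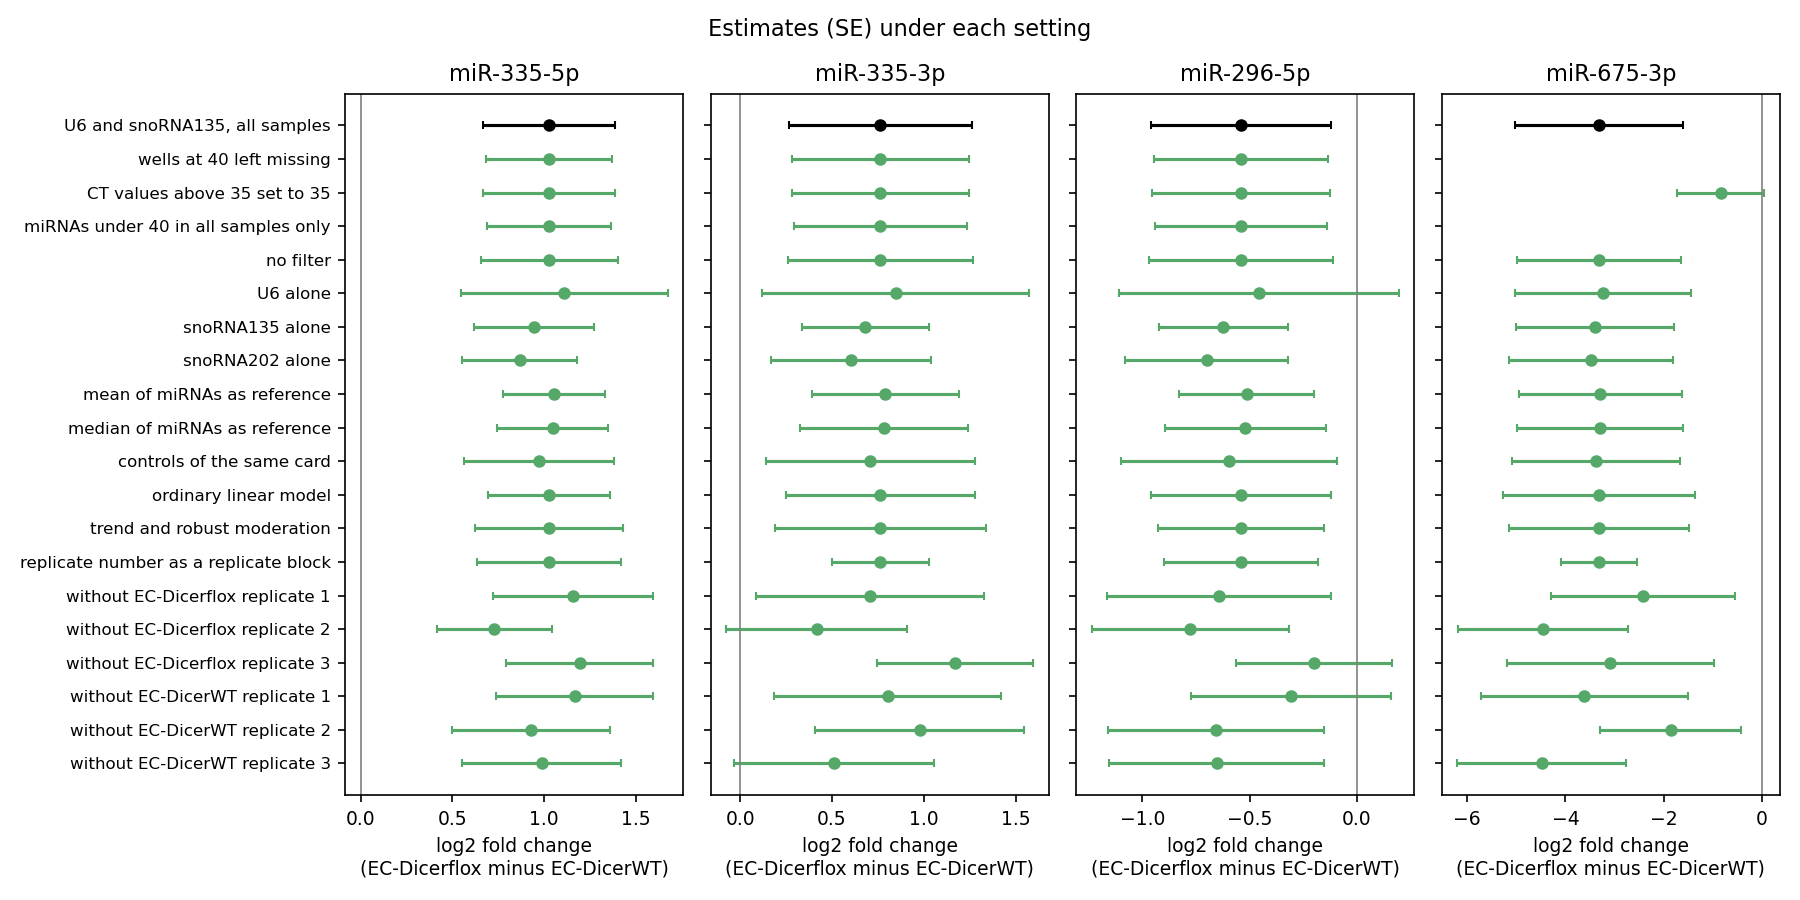
Log2 fold change (EC-Dicerflox minus EC-DicerWT) with its standard error for 4 miRNAs under each setting, with the reported setting in black. All estimates of miR-335-5p and miR-335-3p are above 0 and all of miR-296-5p and miR-675-3p are below 0; miR-675-3p has no estimate where wells at 40 are left out, and horizontal axes differ between panels.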

How the data were processed

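MiRNAs were measured by the authors with Megaplex pre-amplification and TaqMan array cards in 3 EC-Dicerflox and 3 EC-DicerWT aortas. The authors deposited unnormalized CT values, with 40 for no signal; how threshold and baseline were set is not given in the sources used here. The 6 columns were matched to samples by name, leaving 0 sample columns aside. Delta CT was tested with limma 3.58.1 (R 4.3.3), with the mean of U6 and snoRNA135 as the reference (4 wells) and Benjamini-Hochberg adjustment over 461 miRNAs. The test was also run on simulated data without wells at 40. There, the unadjusted limma p-value was under 0.05 for 38% of miRNAs with a true log2 fold change of 1. The share was 58% at -2 and 4.6% at 0. For single values, the 6 samples were permuted exactly (20 arrangements, two-sided). The number of arrays, 3 per group, limits the precision.

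The miRNAs, lists and tests were chosen with earlier results of these data known. All 9 assays of the rule are named, with the 3 miRNAs of highest Pearson r for each of those with a signal in all samples. CT differences against miR-296-5p and miR-126 were added after the values had been seen.

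Samples of the same number deviated together over 350 miRNAs (correlations of 0.15, 0.224 and 0.431 for replicates 1, 2 and 3), each over 0.1, and were taken as pairs in an alternative fit. EC-Dicerflox replicate 1 correlated more with EC-DicerWT replicate 2 (0.285) than with its own number. EC-Dicerflox replicate 2 with EC-DicerWT replicate 1 was also over 0.1 (0.117). The mark of 0.1 thus does not separate pairs of the same number from other pairs. Neither labels nor methods say what a number shares. Other alternatives were the treatment of wells at 40, the filter, the control RNAs, the model and leaving out each sample.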

Additional observations from a re-analysis of the deposited data

How the results depend on the processing

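In the alternatives run, the log2 fold changes of miR-335-5p (0.87 to 1.11), miR-335-3p (0.60 to 0.85), miR-296-5p (-0.70 to -0.46) and miR-675-3p (-3.48 to -0.84) kept their sign, as they did without each sample in turn (0.73 to 1.19, 0.42 to 1.17, -0.78 to -0.20 and -4.48 to -1.86). MiR-675-3p had no estimate with wells at 40 left missing or with miRNAs under 40 in all samples only. None of the 9 assays passed an adjusted limma p-value of 0.05 in any alternative (0 in each). With the replicate number as a replicate block, the unadjusted limma p-values were 0.0707 for miR-335-5p, 0.0557 for miR-335-3p, 0.224 for miR-296-5p and 0.0188 for miR-675-3p, so that miR-335-5p was no longer under 0.05 and miR-675-3p came under it, while the adjusted p-values of these 4 were 0.767. For CT differences, flipping the signs of 3 pairs cannot give a two-sided exact p below 0.25. Over all miRNAs, 14 had an unadjusted p-value under 0.05, 9 with U6 alone, 15 with the replicate block, 24 with an ordinary linear model and 12 to 22 without each sample (22 without EC-Dicerflox replicate 1). The adjusted p-value was passed by 0 to 2 without each sample (2 without EC-Dicerflox replicate 1 and 1 without EC-Dicerflox replicate 3). The cause was not tested. The CT difference between the arms of miR-335 ranged from -0.048 to 0.476 cycles without each sample, below 0 without EC-DicerWT replicate 2.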
